A study of Mus musculus with 8 samples.

Results

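The genes described here carry the Nodal signal in the mouse embryo: the ligands Nodal and Gdf3, the co-receptor Tdgf1 (also called Cripto), the type II receptor Acvr2b, the antagonist Lefty2, the proprotein convertases Furin and Pcsk6, the signal transducers Smad2 and Smad3, and their transcriptional partner Foxh1. They were taken by name, after the Ensembl identifiers of the deposited count table had been matched to mouse symbols. The list was chosen with earlier results of these data known. All 10 were found among 52636 identifiers, and all 10 passed the filter on low counts that left 18321 genes for testing. In the 8 libraries their counts ran from 290 for Pcsk6 to 22232 for Tdgf1.

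The libraries were made from epiblasts of embryos at day 5.5, the tissue from which the body forms. Every embryo had the genotype Sox2Cre;CRAFR26, which pairs a Cre recombinase active in the epiblast with a RAF construct that turns on the kinase ERK when 4-hydroxytamoxifen (4OHT) is given. Embryos were held in IVC2 medium with 250 nM 4OHT or with ethanol as vehicle, and the layers around the epiblast were then cut away. The study asked which genes respond to ERK within 4 h. There were 4 groups of 2 libraries: vehicle and 4OHT in clone 4, and vehicle and 4OHT in clone 8, where the labels name the clones without describing them further. For each library 10 epiblasts were pooled, and the input to a low-input kit was 7 ng of RNA. The vehicle libraries are titled 0 h but are also labelled as 4 h in vehicle, so whether culture time differed between the groups is uncertain. A group without the construct was not analysed here, and the labels do not say whether replicates came from separate litters. The p-values therefore measure the spread between these libraries, part of which may be technical.

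Nodal is a secreted factor of the transforming growth factor beta family. It is made as a precursor that Furin and Pcsk6 (also called PACE4) can cleave. With Tdgf1 as co-receptor it binds type I and type II activin receptors, which phosphorylate SMAD2 and SMAD3. These join SMAD4 and, with FOXH1, switch on genes that include Nodal itself and the feedback inhibitors Lefty1 and Lefty2. In the epiblast around implantation this loop maintains the pluripotent state and sets up the axes of the embryo.

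Sequencing depth (in M, mega counts) was 33.3 M to 38.0 M with vehicle and 56.4 M to 72.5 M with 4OHT, so depth and treatment moved together. Egr1, an immediate early gene of the ERK pathway, stood at 8.05 and 18.2 CPM (counts scaled per mega of library size) in vehicle and at 55.4 and 75.9 CPM in 4OHT libraries of clone 4. In clone 8 it stood at 5.77 and 6.12 CPM in vehicle and at 74.7 and 379 CPM after 4OHT. Every 4OHT library thus lay above every vehicle library for this gene, which was called in clone 8 (log2 fold change 5.25, adjusted p 0.00834) and not in clone 4 (2.32, adjusted p 0.234). Of the 8 ERK response genes on the list, 8 were higher in clone 8, against 53.7% of all tested genes. Of these 4 were called, against 8% of all called higher. In clone 4, 6 were higher, against 49.3% of all tested genes, with 0 called in edgeR. At an unadjusted p under 0.05, 3 were higher there, against 6.22% of all. Fos had 19.8 and 16.4 CPM in vehicle and 10.5 and 12.5 CPM in 4OHT libraries of clone 4. All 10 epiblast markers were detected in every library, and their summed level was 5720 to 6300 CPM in vehicle and 5020 to 5470 CPM in 4OHT libraries, without overlap. All 15 markers of visceral endoderm and all 14 of extraembryonic ectoderm, the layers that had been removed, were detected in every library too, and none was at 0. The visceral endoderm markers summed to 930 and 592 CPM in vehicle and 2790 and 3140 CPM in 4OHT libraries of clone 4, and to 2010 and 1990 CPM in vehicle and 505 and 1360 CPM in 4OHT libraries of clone 8. The extraembryonic ectoderm markers summed to 190 and 233 CPM in clone 8 with vehicle and to between 533 and 822 CPM in the other 6 libraries. The visceral endoderm sum was thus higher after 4OHT in clone 4 and lower after 4OHT in clone 8. The part of these tissue markers in the results on the Nodal pathway was not tested. In pools of cells, fewer cells of a type and less RNA per cell cannot be told apart.

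**Figure D1:**
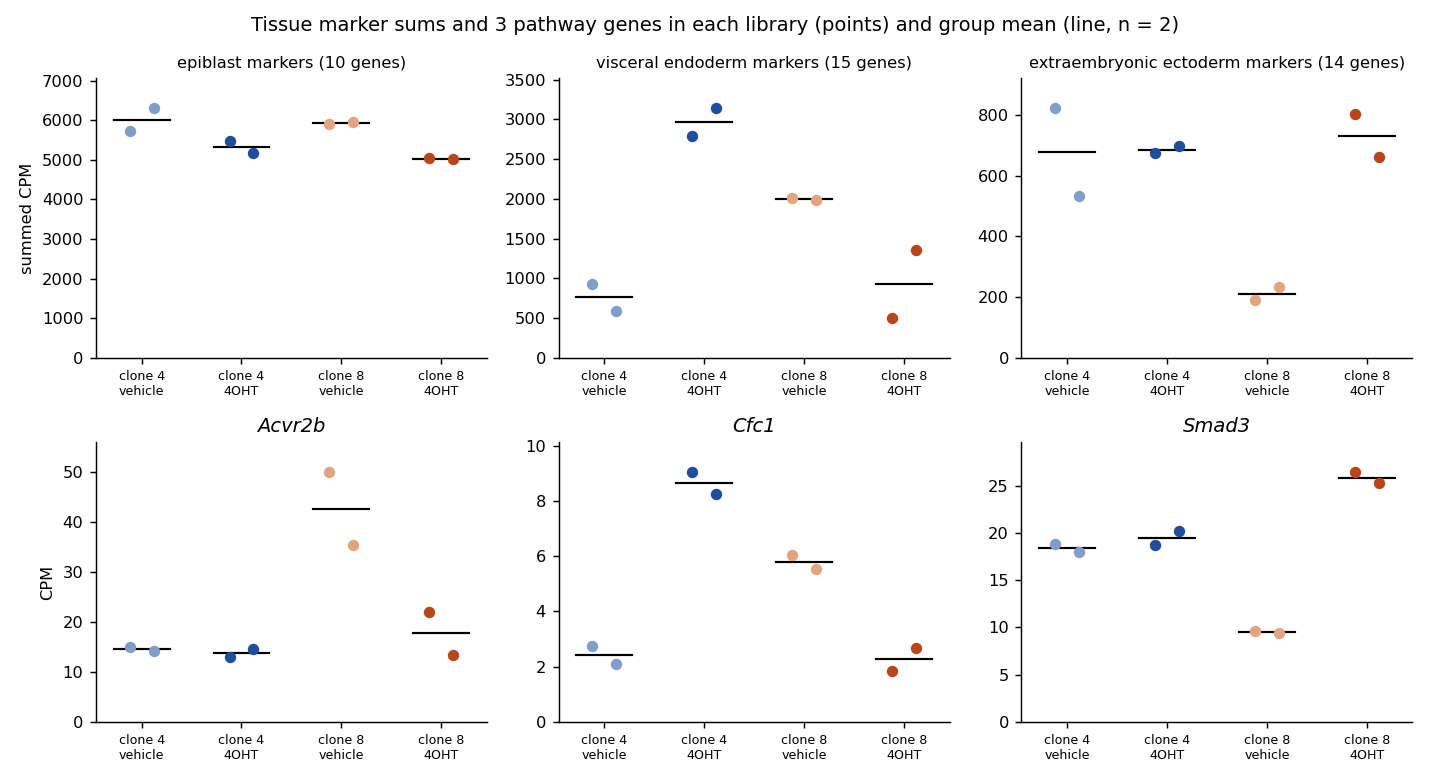
Summed CPM of the markers of 3 tissues (top row) and CPM of 3 genes of the pathway (bottom row), by clone and treatment; points are libraries and lines the means of 2 libraries. In the vehicle libraries of clone 8 the extraembryonic ectoderm markers and Smad3 were at their lowest and Acvr2b at its highest, while Cfc1 and the visceral endoderm markers were both high in 4OHT libraries of clone 4 and in vehicle libraries of clone 8.

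To set levels of different genes side by side, CPM was divided by the exonic length of each gene in kilobases (kb). The pathway fell into 2 ranges that did not overlap in any library. Tdgf1 stood at 111 ± 22.6 CPM per kb (SD, n = 8) with a range of 76.4 to 143. Foxh1, the DNA-binding partner of the SMAD proteins, stood at 65.8 ± 13.6 CPM per kb (SD, n = 8) with a range of 47 to 93.1. These ranges overlapped, and in the first vehicle library of clone 8 Foxh1, at 93.1 CPM per kb, was above Tdgf1, at 76.4.

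The other 8 genes lay at 17.9 CPM per kb or less. Nodal had 11 ± 3.7 CPM per kb (SD, n = 8), Gdf3 7.79 ± 1.95, Lefty2 6.59 ± 3.3, Acvr2b 5.65 ± 3.44 and Smad2 5.52 ± 0.867. Neighbours in this order overlapped in range and did not differ beyond their spread over libraries. Smad3 followed at 3.3 ± 1.13 CPM per kb (SD, n = 8), with a range of 1.69 to 4.77 that met the lower end of Smad2 at 3.89. The convertases were lowest per length, with 1.93 ± 0.3 CPM per kb (SD, n = 8) for Pcsk6 and 1.67 ± 0.628 for Furin. Their order turned when the length of the longest transcript was used, which gave 2.28 CPM per kb for Pcsk6 and 2.68 for Furin. The level of Tdgf1 also depended on this choice, at 151 CPM per kb with the longest transcript.

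**Figure D2:**
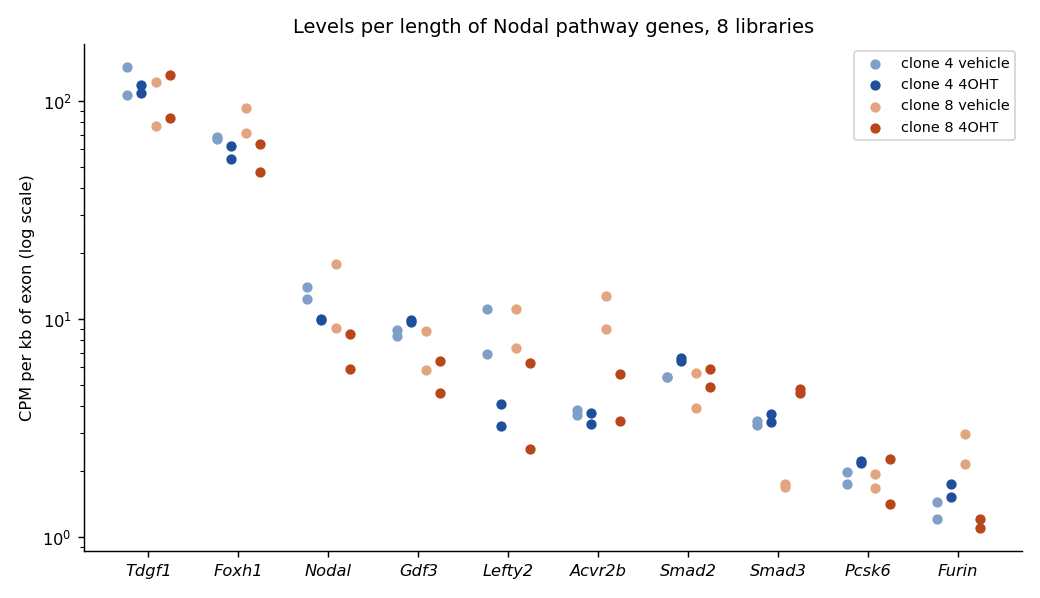
Level of each of the 10 genes as CPM per kb of exon on a log axis, genes ordered by their mean over 8 libraries; each point is 1 library, coloured by clone and treatment. Tdgf1 and Foxh1 lie at 47 CPM per kb or more in every library and the other 8 genes at 17.9 or less.

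The genes also differed in how much they varied over the 8 libraries. The standard deviation of log2 CPM was 0.79 for Lefty2, 0.73 for Acvr2b and 0.57 for Smad3. Among all tested genes these values stood at the 78.2, 75.4 and 64.9 percentiles. Smad2 and Pcsk6 varied least, with standard deviations of 0.24 and 0.23, the latter at the 20.7 percentile.

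The response to 4OHT was tested within each clone with edgeR's quasi-likelihood test. In clone 4, 0 of the 10 genes passed an adjusted p of 0.05, where 0.0382% of all tested genes, 7 genes, did. At an unadjusted p under 0.05, 1 of the 10 passed, against 9.9% of all tested genes. The members had a median log2 fold change of 0.00, and all tested genes had the same median. DESeq2, used as an alternative, called 1 of the 10 genes and 468 genes in all. In clone 8, 3 of the 10 passed, where 16.6% of all tested genes passed; 1 was higher, against 8% of all, and 2 were lower, against 8.6%. Their median log2 fold change was -0.50, against 0.07 over all tested genes. In clone 8 without its first vehicle library, 0 of the 10 genes and 0 of all tested genes passed. A fit of the 4 clone 8 libraries alone also called 0 of either. Without its second vehicle library 5 of the 10 passed, and 2578 of all tested genes. In the same comparison 10 of 14 extraembryonic ectoderm markers were called higher (71.4%), and 6 of 15 visceral endoderm markers (40%) and 4 of 10 epiblast markers (40%) were called lower. The part of these tissues in the response of the 10 genes was not tested. The 4OHT and vehicle libraries did not overlap for 7 of the 10 genes in clone 4 and for 6 of the 10 in clone 8, where 47.5% and 60% of all tested genes did not.

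**Figure D3:**
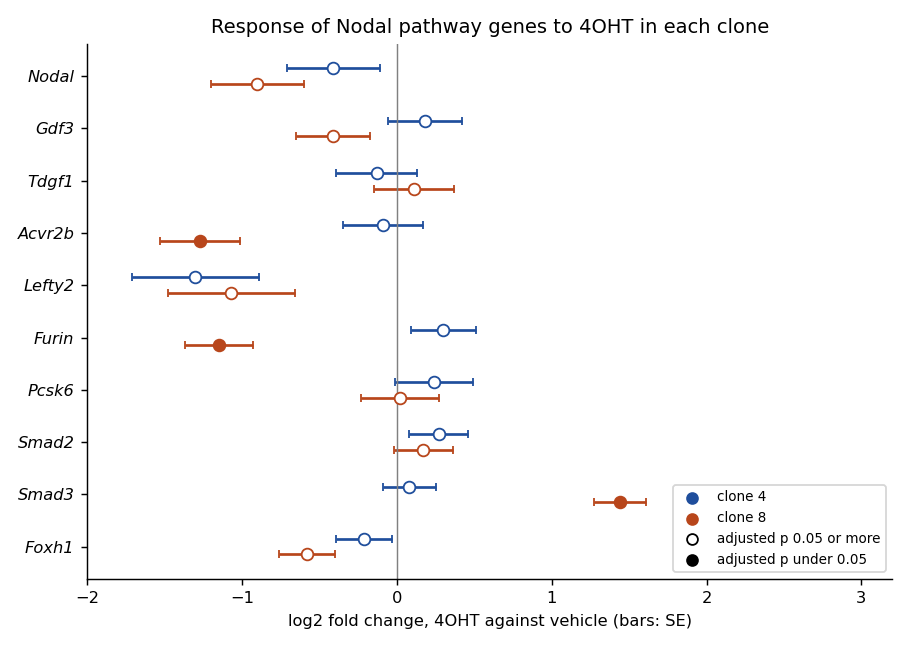
Log2 fold change of 4OHT against vehicle for each gene in clone 4 (blue) and clone 8 (orange), with bars of 1 standard error; filled points passed an adjusted p of 0.05. Smad3 lies at 1.44 and Acvr2b and Furin at -1.27 and -1.15 in clone 8, and no point is filled in clone 4.

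The 3 genes that passed in clone 8 were Smad3, Acvr2b and Furin. The stretches just upstream of their annotated starts are shown to make these loci concrete and to show where short motifs of the pathway stand. They come from the RefSeq promoter table of build GRCm38.p6, in which 6 of the 10 genes matched, and bases that the GENCODE annotation places inside the gene were left off. Smad3 lies on the minus strand and its stretch is chr9:63757995-63758244. Acvr2b lies on the plus strand with chr9:119401928-119402117, and Furin on the minus strand with chr7:80405437-80405686. Capitals mark the 5-base core bound by SMAD proteins, CAGAC, or its reverse complement GTCTG.
Smad3: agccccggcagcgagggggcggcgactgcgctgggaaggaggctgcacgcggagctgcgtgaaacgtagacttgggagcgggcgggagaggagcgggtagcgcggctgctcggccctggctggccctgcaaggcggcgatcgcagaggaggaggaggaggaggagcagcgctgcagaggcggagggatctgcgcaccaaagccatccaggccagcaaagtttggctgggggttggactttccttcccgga
Acvr2b: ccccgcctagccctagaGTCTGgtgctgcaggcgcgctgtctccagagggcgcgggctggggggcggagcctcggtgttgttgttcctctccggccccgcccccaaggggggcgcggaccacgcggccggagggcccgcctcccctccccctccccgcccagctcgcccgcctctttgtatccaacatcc
Furin: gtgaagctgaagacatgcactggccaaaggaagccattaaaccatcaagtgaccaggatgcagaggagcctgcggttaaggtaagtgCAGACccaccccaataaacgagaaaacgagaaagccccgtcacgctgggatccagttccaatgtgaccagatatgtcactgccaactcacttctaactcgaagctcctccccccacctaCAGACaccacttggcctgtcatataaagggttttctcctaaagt
The core occurred 0 times upstream of Smad3, 1 time upstream of Acvr2b and 2 times upstream of Furin. It is common, with at least 1 match on either strand in 42.2% of the 250-base stretches upstream of all 32851 promoters in the table. The FOXH1 motif AATCCACA and the ETS core CCGGAA, each searched on both strands, did not occur in the 3 stretches. They occurred in 0.718% and 12% of all such stretches. None of the 3 motifs contains another. A match, or its absence from these windows, says nothing of whether a factor binds there.

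Among the ligands, Nodal (ENSMUSG00000037171, chr10:61417972-61425338, plus strand) stood at 26 and 29.3 CPM in vehicle and at 21 and 20.6 CPM in 4OHT libraries of clone 4. The clone 8 libraries held 37.4 and 19 CPM with vehicle and 12.3 and 17.9 CPM with 4OHT. In both clones the 4OHT libraries lay below the vehicle libraries, but the first vehicle library of clone 8 was far above the second. The log2 fold change was -0.41 (SE 0.30, adjusted p 0.75) in clone 4. In clone 8 it was -0.90 (SE 0.30, adjusted p 0.0723). Leaving out 1 library at a time gave changes in clone 8 of -1.34 to -0.35. DESeq2 gave -0.92 with an adjusted p of 0.00995. Over the 8 alternatives other than leaving out a library, adjusted p ran from 0.0023 to 0.163, and Nodal passed in 2. Gdf3 (ENSMUSG00000030117, chr6:122605403-122610087, minus strand) is a ligand of the same family that can act with Nodal. It had 20.1 and 21.6 CPM in vehicle and 23.5 and 23.9 CPM in 4OHT libraries of clone 4, and 14 and 21.3 CPM in vehicle and 15.5 and 11.1 CPM after 4OHT in clone 8. Its groups were apart in clone 4 and overlapped in clone 8, and it passed in neither, with adjusted p of 0.874 and 0.269.

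The genes outside the pathway lists whose course over the 8 libraries was closest to that of Nodal were Scrn2, Mfap2 and Rps3a1, a ribosomal protein gene. Closeness was measured as the root mean square distance of mean-centred log2 CPM, among 9090 genes above the median level. The distances were 0.175, 0.19 and 0.192, where the median of all candidates was 0.523. Scrn2 shared with Nodal a high value in the first vehicle library of clone 8, 21 CPM, against 10.9 CPM in the second. Rps3a1 did likewise, at 1660 and 824 CPM. Ribosomal protein genes together took 9.66% of counts in that first library and 7.93% in the second vehicle library of clone 8. In the remaining libraries they took 4.99% to 6.89%. The part of this share in the values of Nodal was not tested.

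The co-receptor Tdgf1 (ENSMUSG00000032494, chr9:110939603-110946158, minus strand) was the most abundant of the 10. It had 374 and 277 CPM in vehicle and 285 and 309 CPM in 4OHT libraries of clone 4. Clone 8 had 200 and 320 CPM in vehicle and 345 and 219 CPM after 4OHT. Replicates were as far apart as the groups, and the groups overlapped in both clones. The log2 fold changes were -0.13 (SE 0.26, adjusted p 0.926) and 0.11 (SE 0.26, adjusted p 0.794). Of the 50-base runs of its transcripts, 8.86% also occur in the pseudogene Tdgf1-ps1, so its counts could have been divided between them.

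Acvr2b (ENSMUSG00000061393, chr9:119402118-119434995, plus strand), a type II receptor for Nodal and activin, had 15 and 14.2 CPM in vehicle and 13 and 14.5 CPM in 4OHT libraries of clone 4. Values in clone 8 were 49.9 and 35.4 CPM in vehicle and 22 and 13.4 CPM after 4OHT. The vehicle libraries of clone 8 stood above the other 6, and its second 4OHT library lay within the range of clone 4. In clone 8 Acvr2b fell by 1.27 on the log2 scale (SE 0.26, adjusted p 0.016), a level 2.41-fold lower after 4OHT. Without the first vehicle library of clone 8 the change was -1.03 with an adjusted p of 0.128. In clone 4 the change was -0.09 (SE 0.26, adjusted p 0.954). Subtracting that response from the one in clone 8 gave -1.18 (SE 0.37) and missed the threshold at an adjusted p of 0.11. It passed with DESeq2, at -1.21 with 0.014. Leaving out 1 library at a time gave differences of -1.58 to -0.87.

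Lefty2 (ENSMUSG00000066652, chr1:180893108-180899103, plus strand), the secreted antagonist that Nodal induces, had 29.1 and 17.9 CPM in vehicle and 10.7 and 8.45 CPM in 4OHT libraries of clone 4. Clone 8 gave 29.1 and 19.3 CPM in vehicle and 16.4 and 6.64 CPM after 4OHT. All 4 4OHT libraries lay below all 4 vehicle libraries. Replicates differed widely in 3 of the 4 groups, and neither clone passed. The log2 fold change was -1.30 (SE 0.41, adjusted p 0.308) in clone 4 and -1.07 (SE 0.41, adjusted p 0.104) in clone 8. DESeq2 called both, at -1.30 with an adjusted p of 0.0205 and -1.09 with 0.0154. Over the 8 alternatives other than leaving out a library, Lefty2 passed in 2 in clone 4 and in 3 in clone 8. Leaving out 1 library at a time gave -1.6 to -0.91 in clone 4 and -1.86 to -0.56 in clone 8. Of the 50-base runs of its transcripts 12% also occur in another gene, nearly all of them in Lefty1, so reads from these stretches are uncertain between the copies. Lefty1 had 61.8 and 75.1 CPM in vehicle and 90.5 and 40.7 CPM in 4OHT libraries of clone 4, and 115 and 80.8 CPM in vehicle and 37.5 and 71.8 CPM after 4OHT in clone 8. It did not pass in either clone, with log2 fold changes of -0.06 (adjusted p 0.982) and -0.84 (adjusted p 0.163).

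The convertases can both process the Nodal precursor. Furin (ENSMUSG00000030530, chr7:80388585-80405436, minus strand) had 13.2 and 11.1 CPM in vehicle and 14.1 and 16 CPM in 4OHT libraries of clone 4. Levels in clone 8 were 27.3 and 19.9 CPM in vehicle and 10.1 and 11.1 CPM after 4OHT. The 4OHT libraries lay above vehicle in clone 4 and below it in clone 8. Furin fell by 1.15 on the log2 scale in clone 8 (SE 0.22, adjusted p 0.0129), 2.23-fold lower. Without the first vehicle library of that clone the change was -0.93 with an adjusted p of 0.104. In clone 4 the change was 0.30 (SE 0.21, adjusted p 0.734). An antisense gene, Gm44851, shares 118 exonic bases with Furin but had at most 7 counts in any library.

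Pcsk6 (ENSMUSG00000030513, chr7:65861734-66050386, plus strand) had 10.3 and 9.08 CPM in vehicle and 11.4 and 11.6 CPM in 4OHT libraries of clone 4, and 10.1 and 8.74 CPM in vehicle and 11.8 and 7.36 CPM after 4OHT in clone 8. Its groups were apart in clone 4 and overlapped in clone 8. The log2 fold changes were 0.24 (SE 0.25, adjusted p 0.831) and 0.02 (SE 0.25, adjusted p 0.959).

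Of the transducers, Smad3 (ENSMUSG00000032402, chr9:63646767-63757994, minus strand) had the lowest p of the 10 in clone 8. It had 18.8 and 18 CPM in vehicle and 18.7 and 20.2 CPM in 4OHT libraries of clone 4. Clone 8 showed 9.64 and 9.37 CPM in vehicle and 26.4 and 25.3 CPM after 4OHT. Replicates were close together, and the vehicle libraries of clone 8 were the lowest of all 8 and its 4OHT libraries the highest. Smad3 rose 2.72-fold in clone 8, by 1.44 on the log2 scale (SE 0.17, adjusted p 0.00699). Without the first vehicle library of clone 8 the value was again 1.44, with an adjusted p of 0.0749, and the fit of clone 8 alone gave 1.41 with 0.0579. In clone 4 it was 0.08 (SE 0.17, adjusted p 0.928).

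Smad2 (ENSMUSG00000024563), the other receptor-activated SMAD of this pathway, had 47.6 and 47.5 CPM in vehicle and 58.1 and 56.5 CPM in 4OHT libraries of clone 4. For clone 8 these were 34.2 and 49.7 CPM in vehicle and 51.6 and 42.8 CPM after 4OHT. The groups were apart in clone 4 and overlapped in clone 8. The log2 fold changes were 0.27 (SE 0.19, adjusted p 0.732) and 0.17 (SE 0.19, adjusted p 0.568), so neither passed.

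Foxh1 (ENSMUSG00000033837, chr15:76668225-76669948, minus strand) had 93.3 and 91.1 CPM in vehicle and 85.1 and 74 CPM in 4OHT libraries of clone 4. The corresponding values of clone 8 were 127 and 97.7 CPM in vehicle and 64.2 and 86.1 CPM after 4OHT. As for Lefty2, all 4 4OHT libraries were below all 4 vehicle libraries. The log2 fold change was -0.21 (SE 0.18, adjusted p 0.779) in clone 4. In clone 8 it was -0.58 (SE 0.18), just outside the threshold at an adjusted p of 0.0527. It passed there with DESeq2, at -0.60 with 0.0117, and with a filter of at least 10 counts in every library, at -0.56 with 0.0412. Over the 8 alternatives other than leaving out a library it passed in 3, with adjusted p from 0.00711 to 0.129. Leaving out 1 library at a time gave changes in clone 8 of -0.81 to -0.39.

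**Figure D4:**
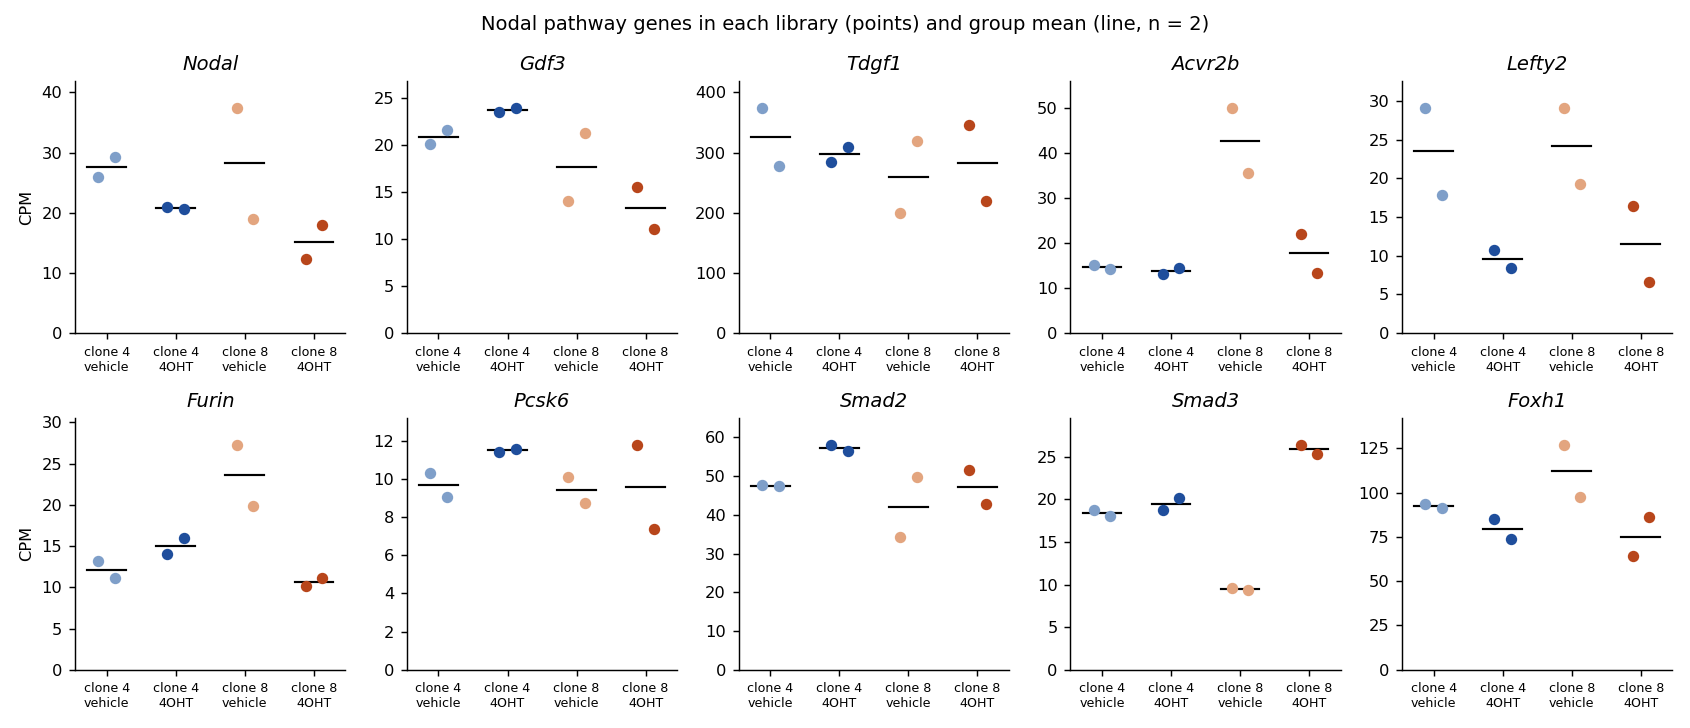
CPM of each of the 10 genes by clone and treatment; points are libraries and lines the means of 2 libraries, and each panel has its own axis starting at 0. For Lefty2 and Foxh1 every 4OHT library is below every vehicle library; for Acvr2b, Furin and Smad3 the vehicle libraries of clone 8 stand apart from those of clone 4.

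A pass in 1 clone alone does not show that the clones differ, so the difference of their responses was tested as an interaction. Of the 10 genes 2 passed, where 2.83% of all tested genes did. Smad3 responded more in clone 8 by 1.36 on the log2 scale (SE 0.24, adjusted p 0.0331). Furin differed by -1.46 (SE 0.30, adjusted p 0.0451), being lower after 4OHT in clone 8 and without a call in clone 4. Leaving out 1 library at a time gave 1.30 to 1.42 for Smad3 and -1.70 to -1.24 for Furin. Both lost their calls when any 1 library of clone 4, or the first vehicle library of clone 8, was left out. Nearly all calls over all tested genes ended in those fits too. Smad3 also lost its call without the second vehicle library of clone 8, where most calls over all tested genes were kept. The other 8 genes had adjusted p between 0.11 and 0.855.

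The vehicle libraries of the clones were compared with each other to see where the genes stood without 4OHT. Of the 10 genes 3 passed, where 8.37% of all tested genes did, and their median log2 difference was -0.01 against 0.00 over all tested genes. Acvr2b was higher in clone 8 by 1.55 on the log2 scale (SE 0.26, adjusted p 0.0207) and Furin by 0.95 (SE 0.22, adjusted p 0.0341). Smad3 was lower in clone 8, at -0.95 (SE 0.17, adjusted p 0.0222). The response of clone 8, where these genes had -1.27, -1.15 and 1.44, uses the same vehicle libraries of clone 8, so the values of these comparisons are not independent. After 4OHT Smad3 stood at 26.4 and 25.3 CPM in clone 8, above 18.7 and 20.2 CPM in clone 4, and Furin at 10.1 and 11.1 CPM, below 14.1 and 16 CPM. The calls of Acvr2b, Furin and Smad3 ended without either vehicle library of clone 4, or without the first of clone 8. Nearly all calls over all tested genes ended in those fits too. The values were then 1.29 to 1.61 for Acvr2b, 0.72 to 1.10 for Furin and -0.96 to -0.90 for Smad3. Furin also lost its call without either 4OHT library of clone 4, at 0.95, where most calls over all tested genes were lost as well. The tissue markers moved in this comparison as well: 7 of 15 visceral endoderm markers were called higher in clone 8 and 10 of 14 extraembryonic ectoderm markers lower. Their part in the values of Acvr2b, Furin and Smad3 was not tested.

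With both clones together and clone as a term in the model, 0 of the 10 genes passed an adjusted p of 0.05, where 0.00546% of all tested genes, 1 gene, did. At an unadjusted p under 0.05 there were 5 of the 10, against 16.9% of all tested genes; 4 were lower, against 8.05%, and 1 higher, against 8.8%. DESeq2 called 2 of the 10 and 1053 genes in all. The vehicle libraries had 23.8 ± 6.08 CPM of Lefty2 and the 4OHT libraries 10.5 ± 4.24 CPM (SD, n = 4 each), at -1.18 on the log2 scale (SE 0.29, adjusted p 0.131). Over the alternatives that kept all libraries its adjusted p ran from 9.77e-06 to 0.19, and it passed in 3 of 9. Foxh1 had 102 ± 16.8 CPM without and 77.4 ± 10.3 CPM with 4OHT (SD, n = 4 each), at -0.40 (SE 0.14, adjusted p 0.221).

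For 2 of the 10 genes, Lefty2 and Foxh1, the 4OHT and vehicle libraries did not overlap over both clones. Of all tested genes 9% were apart in this way. The summed epiblast markers were apart in the same direction, and 9 of the 10 markers had lower values after 4OHT, with a median log2 fold change of -0.24, 0 called in edgeR and 5 lower and 1 higher at an unadjusted p under 0.05. The part of this shift in the values of Lefty2, Foxh1 and Nodal was not tested. Nodal had 27.9 ± 7.64 CPM without and 18 ± 4 CPM with 4OHT (SD, n = 4 each), at -0.65 (SE 0.23, adjusted p 0.213), with lower means in both clones. Smad3 had 14 ± 5.14 CPM without and 22.7 ± 3.77 CPM with 4OHT (SD, n = 4 each), at 0.76 (SE 0.26, adjusted p 0.204). These values join clones that differed. Means of Smad3 without and with 4OHT were 18.4 and 19.5 CPM in clone 4 and 9.51 and 25.9 CPM in clone 8. Smad3 passed in 3 of the 9 alternatives that kept all libraries, with adjusted p from 0.01 to 0.275. Acvr2b, at -0.68 (SE 0.27, adjusted p 0.254), was the other gene with an unadjusted p under 0.05. Its means without and with 4OHT were 14.6 and 13.8 CPM in clone 4 and 42.7 and 17.7 CPM in clone 8. Tdgf1 and Gdf3 had the smallest fold changes, -0.01 and -0.11, with adjusted p of 0.986 and 0.806.

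A wider list of 27 genes of the pathway was read in the same way, of which 24 were tested. Not tested were the ligands Gdf1 and Inhbb and the receptor Acvr1c; Gdf1 had 0 counts in all 8 libraries. In clone 4 none of the 24 passed in edgeR, against 0.0382% of all tested genes, and 5 had an unadjusted p under 0.05, 20.8% against 9.9%. In clone 8, 7 of 24 passed, 29.2% against 16.6% of all tested genes. The receptors Acvr2a and Tgfbr1 were higher after 4OHT, by 0.86 (adjusted p 0.0459) and 0.98 (adjusted p 0.0224) on the log2 scale, as were the corepressors Tgif2, by 0.79 (adjusted p 0.0218), and Skil, by 0.36 (adjusted p 0.0392). Lower were Smad4, the partner shared by SMAD2 and SMAD3, at -1.38 (adjusted p 0.00782), Cfc1, a co-receptor related to Tdgf1, at -1.35 (adjusted p 0.0172), and Drap1, which encodes a protein that binds FOXH1, at -0.99 (adjusted p 0.0199). Without the first vehicle library of clone 8 these calls ended, as did every call over all tested genes in that comparison. When each library was left out in turn, Skil lost its call in all 8 cases and Acvr2a in 7, and the other 5 genes in 1 or 2.

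Smad4 had 24 and 22.2 CPM in vehicle and 22.1 and 23.2 CPM in 4OHT libraries of clone 4, and 78.6 and 58.8 CPM in vehicle and 28.1 and 24.8 CPM after 4OHT in clone 8. Like Acvr2b, it stood apart in the vehicle libraries of clone 8. Drap1, Tgfbr1, Acvr2a and Tgif2 did so too. With vehicle first and 4OHT second, mean CPM of Drap1 was 11.6 and 10.2 in clone 4 and 22.2 and 11.2 in clone 8. Tgfbr1 had means of 45 and 45.1 CPM in clone 4 and 24.1 and 47.4 CPM in clone 8. For Acvr2a they were 24 and 26.3 CPM, then 14.6 and 26.5 CPM. For Tgif2 they were 27.4 and 24 CPM, then 13.5 and 23.3 CPM. Skil had 259 and 315 CPM in clone 4 and 216 and 278 CPM in clone 8. Cfc1 had 2.73 and 2.08 CPM in vehicle and 9.04 and 8.24 CPM in 4OHT libraries of clone 4. In clone 8 it had 6.05 and 5.54 CPM in vehicle and 1.85 and 2.69 CPM after 4OHT. The groups with the highest Cfc1, 4OHT in clone 4 and vehicle in clone 8, were also those with the highest visceral endoderm marker sums. The part of that tissue in the values of Cfc1 was not tested. The interaction passed for 2 of the 24, Cfc1 at -3.20 (SE 0.41, adjusted p 0.0177) and Smad4 at -1.35 (SE 0.25, adjusted p 0.0357), 8.33% against 2.83% of all tested genes. Both lost that call when any 1 library of clone 4, or the first vehicle library of clone 8, was left out. Nearly all calls over all tested genes ended in those fits too. Leaving out each library in turn gave -3.49 to -2.95 for Cfc1 and -1.58 to -1.15 for Smad4.

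In the vehicle libraries, 6 of the 24 differed between the clones, 25% against 8.37% of all tested genes. Smad4, Cfc1, Drap1 and Ski were higher in clone 8, by 1.57, 1.27, 0.93 and 1.03 on the log2 scale, and Tgif2 and Tgfbr1 were lower, at -1.02 and -0.90. Their adjusted p ran from 0.00896 for Smad4 to 0.0436 for Tgfbr1. The response of clone 8 uses the same vehicle libraries of clone 8, so the values of the wider list in these comparisons are not independent. Without the first vehicle library of clone 8 these calls ended, as did every call over all tested genes. The values were then 1.36 for Smad4, 1.22 for Cfc1, 0.87 for Drap1, 0.83 for Ski, -0.84 for Tgif2 and -0.74 for Tgfbr1. Leaving out other libraries ended some of these calls too, and the number of calls over all tested genes then changed as well. With both clones together 0 of the 24 passed in edgeR, against 0.00546% of all tested genes, and 6 had an unadjusted p under 0.05, 25% against 16.9%. The target genes Mixl1, Eomes, Gsc, T, Foxa2 and Lhx1 passed in none of the 5 comparisons. In clone 4 Mixl1, Foxa2 and Lhx1 had log2 fold changes of 1.90, 1.69 and 1.47 with adjusted p of 0.3, 0.377 and 0.347, and T had -0.18 with 0.97. In clone 8 these values were -0.04, -0.50 and -0.22, and 1.79 for T, with adjusted p of 0.117 or more. In that clone T had 3.34 to 10.3 CPM in vehicle and 7.64 to 39.7 CPM in 4OHT libraries, so its groups overlapped. All 15 visceral endoderm markers were higher in clone 4 after 4OHT, with a median of 1.99 and 0 called in edgeR, 14 having an unadjusted p under 0.05. The part of that tissue in the values of the target genes was not tested.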

How the data were processed

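RNA was sequenced in 8 libraries, and the authors deposited raw counts per Ensembl gene, whole numbers with no normalization, 1 column per library. The submitters' processing notes name bcl2fastq 2.19.1, STAR 2.5.3a and the build mm10. How reads were counted, with which annotation and whether by strand is not given in the sources used here, so overlapping, antisense and duplicated genes are uncertain. Symbols matched for 52403 of 52636 identifiers, and the rest took up to 0.0325% of a library's counts. Coordinates and exonic lengths came from GENCODE on GRCm38, the assembly of mm10.

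Counts were tested with edgeR 4.0.16 in R 4.3.3 (filterByExpr with a minimum count of 10, TMM scaling, quasi-likelihood tests with the default options of that version). Benjamini-Hochberg adjustment ran over the 18321 tested genes, and genes with an adjusted p under 0.05 are said to be called, or to pass. Responses within clones, their difference and the vehicle comparison came from 1 fit of 4 groups, and the response of both clones together from a fit with clone and treatment as terms. SE, the standard error, was taken as the absolute log2 fold change over the root of F. CPM used TMM-scaled library sizes (33.3 M to 72.5 M counts before scaling, M for mega), and 2 was the prior count in log2 CPM. The fits were tested on simulated data.

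The 10 genes, the wider list and the markers were chosen with earlier results of these data known. Every one of the 10 genes is reported; genes of the wider list are named where they passed, and the 3 genes closest to Nodal by distance; values of others were chosen after they were seen. Lefty1 and the target genes are of the last kind, and 1 gene of the wider list is counted but not reported here. Replicates of a group differed by more than sampling noise and none was merged. Alternatives comprised DESeq2 1.42.0, RLE size factors or plain library totals, filters set to none or to 10 counts per library, a replicate block, each clone fitted by itself, no clone term, the mean of the clones' responses, other lengths and leaving out each library. The newer quasi-likelihood method was added after the data were seen.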

Additional observations from a re-analysis of the deposited data

Results flagged for a closer look

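Over 20 groups of 4 libraries of a condition, 1 value far from the others would be expected by chance and 3 were found. Each group mixed both clones, and all groups came from the same libraries, so this expectation is approximate. Acvr2b stood at 22 CPM in the first 4OHT library of clone 8, and the other 4OHT libraries at 13, 14.5 and 13.4 CPM. Pcsk6 stood at 7.36 CPM in the second 4OHT library of clone 8, below 11.4, 11.6 and 11.8 CPM in the others. Smad2 stood at 34.2 CPM in the first vehicle library of clone 8, below 47.6, 47.5 and 49.7 CPM in the others. All 3 lay in libraries of clone 8.

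The response to 4OHT differed between the clones for 4 genes of the pathway by the interaction test of edgeR, which called 2.83% of all tested genes. All 4 lost that call when any 1 library of clone 4, or the first vehicle library of clone 8, was left out. Nearly all calls over all tested genes ended in those fits too. Smad3 also lost it without the second vehicle library of clone 8. Smad3 differed by 1.36 on the log2 scale and rose in clone 8. Furin differed by -1.46 and Smad4 by -1.35, and both fell in clone 8. Cfc1 differed by -3.20, with 1.84 in clone 4 (adjusted p 0.0658) and -1.35 in clone 8 (adjusted p 0.0172). Mitochondrial genes took 1.35% and 1.19% of counts in the 4OHT libraries of clone 8 and 0.205% to 0.619% in the other 6. Of the 15 visceral endoderm markers 9 were called with a lower response in clone 8, and the median difference of the list was -3.04. The part of the mitochondrial share and of these markers in the differences was not tested.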

How the results depend on the processing

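Alternatives are named against the values reported above. In clone 4, 7 genes were called; there were 728 with no expression filter, 78 with at least 10 counts in every library, 468 with DESeq2, 16 with the newer quasi-likelihood method and 220 in a fit of clone 4 alone. Leaving out 1 library gave 0 to 259. Of the 10 genes, Lefty2 alone was called there with no filter and with DESeq2, 1 in each. In clone 8, where 3041 genes were called, the fit of that clone alone called 0, with 0 of the 10, and leaving out 1 library gave 0 to 3218 genes and 0 to 5 of the 10; no filter called 6 of the 10 and 4263 genes, and DESeq2 6 and 4308. For the difference between clones (519 genes) there were 2114 with no filter and 1864 with DESeq2, and 0 to 1205 leaving out 1 library, with 0 to 3 of the 10; library totals left 1 of the 10. For both clones together (1 gene) there were 1337 genes and 4 of the 10 with no filter, 1053 and 2 with DESeq2, 1063 and 2 with the mean of the clones' responses, 0 genes with at least 10 counts in every library, and 0 to 1 leaving out 1 library. Between vehicle libraries (1534 genes) there were 2901 with no filter, 3064 with DESeq2, and 0 to 2491 genes and 0 to 3 of the 10 leaving out 1 library. With the replicate number as a block, 0 genes were called in clone 4 and 1 of the 10 in the difference between clones, where Furin had an adjusted p of 0.0513. Lefty2 gained a call in clone 8 under the block, and the other counts stayed within 1.5 times. Deviations of same-numbered libraries correlated at -0.0298 to 0.0947, so they showed little shared shift. Whether the numbers mark libraries handled together is not in the labels and cannot be told from this.

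The sign turned for the log2 fold changes named here, and not all were near 0. In the alternatives that kept all libraries, the difference between clones was -0.51 to -0.38 for Nodal. It was 0.22 to 0.35 for Tdgf1 and 0.10 to 0.35 for Lefty2. Gdf3 between vehicle libraries had -0.26 to -0.22. With library totals, Smad2 had a difference between clones of 0.00 and Tdgf1 a response in both clones of 0.06; the latter was 0.01 with no filter and 0.00 with at least 10 counts. Pcsk6 had -0.01 in clone 8 alone. Leaving out 1 library gave these ranges. In clone 4, Tdgf1 had -0.33 to 0.10. In clone 8, Tdgf1 had -0.25 to 0.46, Pcsk6 -0.36 to 0.32 and Smad2 -0.10 to 0.43. For the difference, Nodal had -0.93 to 0.06, Tdgf1 -0.12 to 0.59, Lefty2 -0.57 to 0.74, Pcsk6 -0.60 to 0.08 and Smad2 -0.37 to 0.16. In both clones, Tdgf1 had -0.18 to 0.10 and Gdf3 -0.22 to 0.06. Between vehicle libraries, Nodal had -0.53 to 0.46, Gdf3 -0.55 to 0.05, Lefty2 -0.27 to 0.45, Pcsk6 -0.14 to 0.08 and Smad2 -0.45 to 0.08. The cause was not tested. Of the other values for single genes, 101 lost a call and 25 gained one. Another 876 kept direction and side of the threshold or, for levels per length, stayed within their standard deviation over libraries. The earlier quasi-likelihood method planned as an alternative is the default used here. Each of the 10 genes had 290 counts or more in every library; precision is limited by the 2 libraries of each group.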
